A study of Mus musculus with 33 samples.

Results

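The IGF axis of the mouse liver was read here from 10 of the 21671 genes in the deposited table, taken by symbol: the ligand Igf1, the circulating carrier subunit Igfals, the binding proteins Igfbp1, Igfbp2, Igfbp3 and Igfbp4, the receptors Igf1r, Insr and Igf2r, and the docking protein Irs2. All 10 symbols were found, and none was chosen by its measured value. Hepatocytes are the main source of circulating IGF-1, which growth hormone induces through its receptor, JAK2 and STAT5. In blood most IGF travels in a complex with IGFBP3 or IGFBP5 and the acid-labile subunit, the product of Igfals. Adult hepatocytes carry much insulin receptor and little IGF-1 receptor, and IGF2R binds IGF2 and takes it to lysosomes without the kinase signalling of the other receptors.

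The study asked how MYC and beta-catenin act together in liver tumours, in total RNA libraries from 33 C57BL/6 mice in 2 arms. In the short-term arm, mice of 6 to 8 weeks received the virus AAV8-TBG-CRE, in which the hepatocyte promoter TBG drives Cre recombinase, and livers were taken after 4 days. Its 4 groups of 5 livers were WT, beta-cat Ex3 (Cre acts on exon 3 of beta-catenin, the part that marks the protein for destruction), R26-lslMYC (Cre turns on MYC) and R26-lslMYC/beta-cat Ex3. They are called wild-type, Ex3, MYC and MYC+Ex3 livers below, and the wild-type livers received the Cre virus too. The second arm held 3 liver nodules of genotype Albeta-CreERT2/R26-lslMYC, 3 of genotype Albeta-CreERT2/R26-lslMYC/beta-catEx3, and 7 WT livers taken 4 days after intraperitoneal 4-OHT, a tamoxifen metabolite. The nodules are called MYC and MYC+Ex3 tumours. Albeta-CreERT2 is a Cre under an albumin promoter that needs tamoxifen or 4-OHT to act, and the labels give the nodules no treatment and no age. The comparison livers of the tumour arm therefore differed from the nodules in the Cre transgene and possibly in agent and age. These cannot be told apart from the tumours' genotype.

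Promoter sequence is shown for 3 members that moved in the data or carry a match close to the start site. The stretches are the 100 bases before a RefSeq start site on GRCm38.p6, 5′ to 3′ on the gene's strand, with capitals marking matches. Irs2 lies on the minus strand at chr8:11008930-11009029, Igf2r on the minus strand at chr17:12769707-12769806 and the Igfals start shown on the plus strand at chr17:24878131-24878230.
Igf2r: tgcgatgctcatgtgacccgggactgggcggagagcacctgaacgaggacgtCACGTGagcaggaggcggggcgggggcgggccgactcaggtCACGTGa
Irs2: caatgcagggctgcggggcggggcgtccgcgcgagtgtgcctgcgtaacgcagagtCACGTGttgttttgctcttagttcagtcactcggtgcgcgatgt
Igfals: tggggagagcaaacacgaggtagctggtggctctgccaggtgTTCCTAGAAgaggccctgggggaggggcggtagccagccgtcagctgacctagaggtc

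RefSeq held windows for 9 of the 10 members, 12 windows in all, each from 250 bases before to 50 bases after a start site. Both strands were searched for 4 motifs: CACGTG, the E-box that MYC and other factors bind, TTCNNNGAA for STAT5, GTAAACA for forkhead factors such as FOXO1 and ATCAAAG for TCF/LEF factors. Igf2r held CACGTG 48 and 7 bases before its start, Irs2 held it 44 bases before and Igfbp2 142 bases before. Igfals held TTCCTAGAA 58 bases before one start, TTCTCAGAA 236 bases before another and a forkhead match 242 bases before the first. These 4 members held all the matches found. Among 32851 mouse promoter windows of the same length, 7.15% held CACGTG, 8.3% the STAT5 letters, 3.65% the forkhead letters and 3.73% the TCF/LEF letters.

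The values were RPKM, reads scaled to gene length and library total, which compare genes per length. Depth ran from 3.75 to 7.31 M reads in genes per short-term liver and from 6.65 to 9.82 M per library of the tumour arm. The arms stand on separate scales, since genes held 99.95 to 99.96% of the total behind the RPKM at day 4 and 22.2 to 29.6% in the tumour arm, and levels are compared only within an arm. Within each arm the highest RPKM of any gene was lower where that total was larger. It was 396 at the smallest day 4 total (3.75 M) and 220 at the largest (7.32 M). In the tumour arm it was 67.5 at 23.9 M and 42.9 at 38.8 M. The part of library total in values near this top of the scale was not tested. The beta-catenin target Axin2 read 2.73 to 4.30 RPKM in wild-type and 0.513 to 6.99 in MYC livers against 10.6 to 24.9 in Ex3 and 7.49 to 24.3 in MYC+Ex3 livers. Myc itself overlapped between wild-type (0.748 to 4.11) and MYC livers (3.12 to 4.81), and whether the transgene's reads count there is not given in the sources used here. All 10 hepatocyte markers were detected in every group. In 10 of the 20 short-term livers (wild-type 2, 4 and 5, Ex3 3, 4 and 5, MYC 4 and MYC+Ex3 3, 4 and 5) the keratins Krt5, Krt14 and Krt17, which mark epidermis, summed to 3.95 to 23.8 RPKM, against at most 0.398 in the other livers. The 4-OHT livers bear 2 kinds of title, S14 for 4 livers and S15 for 3. Sex was not balanced between groups. At day 4, wild-type livers held 2 males in 5, MYC+Ex3 livers 4 in 5, and the remaining groups 3 in 5 each. In the tumour arm every MYC tumour was assigned male, against 4 of 7 4-OHT livers and 2 of 3 MYC+Ex3 tumours. A sex term was fitted only as an alternative setting. In whole tissue, fewer cells of a type and less RNA per cell cannot be told apart. Titles carry a separate number for each library and nothing more about litters, so p-values measure the spread between these libraries.

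In wild-type short-term livers Igf1, Igfals, Igfbp2 and Igfbp4 stood above all 3 receptors, while Igfbp1 overlapped Insr and Igf2r, and Igfbp3 overlapped Igf2r. Mean levels per gene length ran from Igfbp4 at 190 RPKM and Igfbp2 at 188 through Igf1 at 142, Igfals at 119, Igfbp1 at 70.9, Insr at 48.1, Igfbp3 at 24.1, Igf2r at 16.5 and Irs2 at 14.8 to Igf1r at 1.63. Neighbours Igfbp4 and Igfbp2, Igf1 and Igfals, Igfbp1 and Insr, Igfbp3 and Igf2r, and Igf2r and Irs2 overlapped between livers, as did Igfals and Igfbp1. The highest of these members stood closest to the top of the scale, where no gene of a day 4 library passed 396 RPKM. How far this limits their order and their differences between groups was not tested. The 4-OHT livers, on their own scale, read Igfbp4 highest as well (30.9 to 39.9 RPKM) and Igf1r lowest (0.460 to 0.764).

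**Figure D1:**
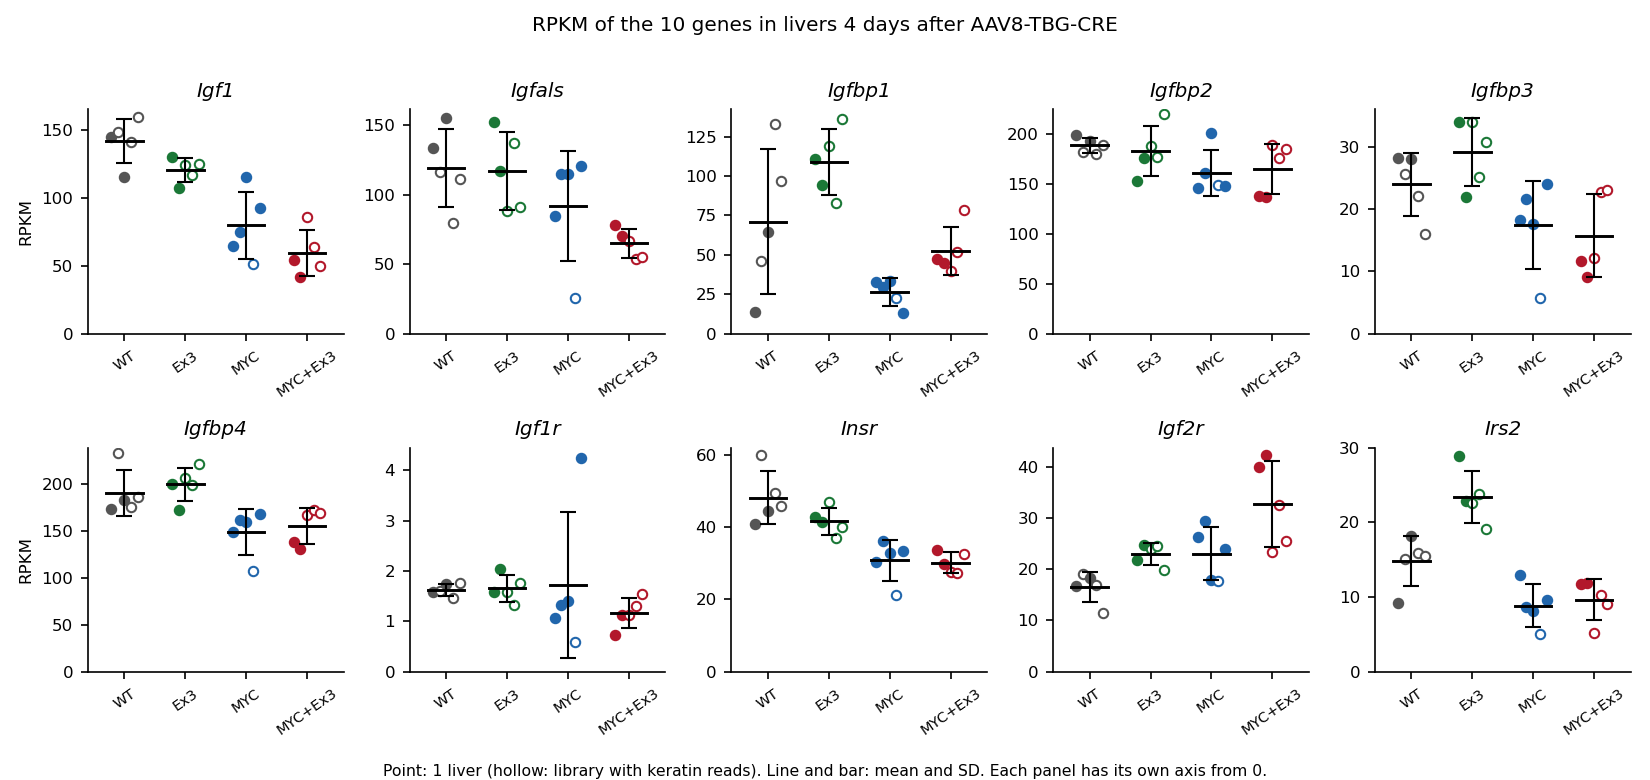
RPKM (linear axis from 0, its own in each panel) of the 10 genes in the 20 short-term livers; each point is 1 liver, hollow where the library holds keratin reads, and line and bar are mean and SD. Insr is lower in every MYC and MYC+Ex3 liver than in any wild-type liver, and Igf2r reaches its highest values in MYC+Ex3 livers (23.5 to 42.3 RPKM).

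At day 4 after Cre, the ligand gene Igf1 was lower where MYC was on. Igf1 read 145, 149, 115, 141 and 159 RPKM in wild-type livers, 130, 107, 124, 117 and 125 in Ex3 livers, 64.3, 74.8, 115, 51.5 and 92.2 in MYC livers and 54.4, 42.0, 86.0, 63.5 and 50.1 in MYC+Ex3 livers. The MYC+Ex3 livers lay wholly below both groups without MYC, while MYC liver 3 reached the lowest wild-type liver. Group means were 1.78 times lower in MYC than in wild-type livers (142 ± 16.4 against 79.7 ± 25 RPKM, SD, n = 5 each) and 2.40 times lower in MYC+Ex3 livers (59.2 ± 16.9). On the log2(RPKM + 1) scale, which understates changes of genes with low values, Igf1 fell by 0.87 ± 0.18 (SE) with MYC (limma adjusted p = 0.00181) and by 1.28 ± 0.18 with both alleles (limma adjusted p = 3.25e-05). With MYC, the call ended among the livers with low keratins alone, where 2 wild-type livers remained (limma adjusted p = 0.118).

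Igfals varied more among livers of a group. It read 133, 116, 155, 79.8 and 111 RPKM in wild-type, 152, 117, 88.0, 137 and 90.9 in Ex3, 84.4, 114, 115, 25.5 and 120 in MYC and 78.4, 70.3, 66.8, 53.3 and 55.2 in MYC+Ex3 livers. The MYC+Ex3 livers again lay below every liver without MYC, and MYC liver 4 was the lowest of all. The log2 difference from wild type was -0.52 ± 0.31 with MYC (limma adjusted p = 0.247) and -0.85 ± 0.31 with both alleles (limma adjusted p = 0.0515), so neither passed the threshold of 0.05. Without MYC liver 4 the MYC value was -0.11, and with a keratin term it was -0.80 and passed (limma adjusted p = 0.0223). With both alleles Igfals passed in 8 of 11 other settings (limma adjusted p from 0.00359 to 0.0469) and without MYC liver 4 or 5 or wild-type liver 4. It was weakest among those 11 with a sex term, where it did not pass (limma adjusted p = 0.108). The authors' deposited table gives Igfals with both alleles a log2 fold change of -0.91 with an adjusted p of 1.65e-06.

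Among the binding proteins, Igfbp4 was lower with MYC. It read 173, 233, 183, 176 and 187 RPKM in wild-type, 201, 172, 207, 199 and 221 in Ex3, 149, 162, 160, 107 and 168 in MYC and 138, 131, 167, 172 and 169 in MYC+Ex3 livers. The MYC and MYC+Ex3 livers lay below all wild-type livers. Against wild type, Igfbp4 fell by 0.36 ± 0.12 on the log2 scale with MYC (limma adjusted p = 0.0381), and the difference with both alleles was -0.29 ± 0.12 (limma adjusted p = 0.0863). The call with MYC ended without MYC liver 1 or 4 or wild-type liver 2, 3 or 5 (adjusted p from 0.0517 to 0.119), and the low-keratin livers alone gave 0.347. It also ended without the filter on low values (0.0615), with a keratin term (0.0578) and with only the groups compared in the fit (0.0872). The difference with both alleles passed with sample weights (limma adjusted p = 0.00182), among low-keratin livers (0.0273) and without MYC liver 4 (0.033).

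Igfbp1, which fasting induces and insulin represses, spread most widely. Wild-type livers read 13.7, 46.2, 64.4, 133 and 97.2 RPKM, Ex3 livers 111, 94.3, 119, 83.0 and 136, MYC livers 33, 29.8, 33.4, 22.6 and 12.9, and MYC+Ex3 livers 47.4, 45.0, 39.8, 52.0 and 78.4. All Ex3 livers stood above all MYC+Ex3 livers, and these above all MYC livers, while wild-type liver 1 lay near the lowest MYC liver. Log2 differences from wild type were 0.93 ± 0.41 with Ex3 (limma adjusted p = 0.895), -1.13 ± 0.41 with MYC (limma adjusted p = 0.0515) and -0.13 ± 0.41 with both (limma adjusted p = 0.855), none past the threshold. Without wild-type liver 1 the MYC difference was -1.62 (limma adjusted p = 0.000516), and among low-keratin livers it was -0.22 (limma adjusted p = 0.839). It also passed after rescaling, with sample weights, with a filter at 5 RPKM and without MYC liver 3 (limma adjusted p from 0.0398 to 0.0484). The authors' deposited table lists Igfbp1 lower with MYC, with a log2 fold change of -1.10 and an adjusted p of 0.0322. Without wild-type liver 1 the Ex3 difference was 0.44 and that with both alleles -0.62, and the latter turned to 0.61 among low-keratin livers.

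Igfbp3, the partner of Igfals in the circulating complex, comes largely from non-parenchymal cells of the liver. It read 28.3, 25.7, 28.1, 22.2 and 16.1 RPKM in wild-type, 34.0, 21.9, 34.2, 25.3 and 30.8 in Ex3, 18.2, 21.7, 17.6, 5.77 and 24.2 in MYC and 11.7, 9.07, 12.1, 22.8 and 23.1 in MYC+Ex3 livers. Groups overlapped throughout, with MYC liver 4 the lowest. Neither MYC (-0.54, limma adjusted p = 0.214) nor both alleles (-0.65, limma adjusted p = 0.128) passed the test against wild type. With both alleles the value was -1.37 among low-keratin livers, a call (limma adjusted p = 0.00289), and -0.16 among keratin livers, and it also passed with sample weights (0.00491) and without MYC liver 4 (0.0369). Without MYC liver 4 the MYC value was -0.21. The authors' deposited table lists Igfbp3 lower with both alleles, with a log2 fold change of -0.64 and an adjusted p of 0.0358. The summed RPKM of 10 liver endothelial markers was 230 to 393 in wild-type, 234 to 316 in Ex3, 143 to 304 in MYC and 160 to 290 in MYC+Ex3 livers, and its part in the Igfbp3 values was not tested. Igfbp2 ran from 137 to 220 RPKM over the 20 livers with all groups overlapping. Its log2 differences from wild type lay between -0.24 and -0.05, none past the threshold. With both alleles it passed with sample weights (-0.37, limma adjusted p = 0.006) and among low-keratin livers (-0.50, limma adjusted p = 0.0404), while keratin livers gave 0.982. With MYC it passed without MYC liver 3 (-0.32, limma adjusted p = 0.042). The authors' deposited table lists it lower with MYC, with a log2 fold change of -0.32 and an adjusted p of 0.0484.

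The receptors moved apart from each other. Insr, the insulin receptor, read 40.9, 60.0, 44.4, 49.5 and 45.9 RPKM in wild-type, 42.7, 41.4, 47.0, 36.9 and 40.0 in Ex3, 30.2, 36.1, 32.9, 21.1 and 33.3 in MYC and 33.8, 29.9, 27.4, 27.3 and 32.4 in MYC+Ex3 livers. Every liver with the MYC allele on stood below every liver without it. Insr fell by 0.64 ± 0.13 on the log2 scale with MYC (limma adjusted p = 0.00117) and by 0.65 ± 0.13 with both alleles (limma adjusted p = 0.000876). Among low-keratin livers both calls ended, at adjusted p = 0.0857 with MYC and 0.0502 with both alleles (limma).

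Igf2r, the clearance receptor for IGF2 and a carrier of lysosomal enzymes, went the other way. Wild-type livers read 16.7, 19.1, 18.2, 16.8 and 11.5 RPKM, Ex3 livers 21.8, 24.7, 23.9, 24.5 and 19.8, MYC livers 26.3, 29.4, 17.9, 17.7 and 24.0, and MYC+Ex3 livers 40.0, 42.3, 23.5, 32.6 and 25.5. Both Ex3 and MYC+Ex3 livers lay wholly above wild type, and MYC livers overlapped it. The MYC+Ex3 mean was 1.99 times the wild-type mean, a rise of 0.93 ± 0.17 on the log2 scale (limma adjusted p = 0.000515). With a single allele the differences were 0.47 ± 0.17 for Ex3 (limma adjusted p = 0.725) and 0.45 ± 0.17 for MYC (limma adjusted p = 0.0689), and neither passed. The MYC difference passed with sample weights (limma adjusted p = 0.00965) and without MYC liver 3 or 4 (0.0412 and 0.0461).

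Airn, the long RNA transcribed from the opposite strand of Igf2r and known for silencing the paternal Igf2r copy, stood above its wild-type range in all 3 other groups. It ran from 1.5 to 3.13 RPKM in wild-type, 3.46 to 13.1 in Ex3, 3.82 to 6.26 in MYC and 6.72 to 11.4 in MYC+Ex3 livers. The GENCODE annotation of GRCm38 shares no exon bases between Airn and Igf2r, but the strand setting of the counting is not given in the sources used here, so reads of one in the other cannot be told apart. Igf1r, the receptor for IGF-1, stayed at the floor of the member list, between 0.582 and 2.03 RPKM in 19 of the 20 livers and at 4.25 in MYC liver 5, with no call in any short-term comparison of the main fit. With sample weights it was lower in MYC+Ex3 livers than in wild-type (-0.43, limma adjusted p = 0.0316) and Ex3 livers (-0.42, limma adjusted p = 0.0192). The authors' deposited table lists it lower with both alleles than in wild type, with a log2 fold change of -0.55 and an adjusted p of 0.0228.

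Irs2, which couples both receptors to PI3 kinase and is repressed by insulin through FOXO1, was highest in Ex3 livers and lowest with MYC. It read 9.21, 15.1, 18.2, 15.9 and 15.5 RPKM in wild-type, 28.8, 22.9, 22.6, 23.8 and 19.0 in Ex3, 12.9, 8.66, 8.06, 5.05 and 9.57 in MYC and 11.7, 11.9, 5.18, 10.3 and 9.0 in MYC+Ex3 livers. The Ex3 livers lay above every other liver, and MYC and MYC+Ex3 livers overlapped the wild type only near wild-type liver 1. With MYC, Irs2 fell by 0.70 ± 0.22 on the log2 scale (limma adjusted p = 0.0275), a call that ended with only the groups compared in the fit (0.0594), with sample weights (0.0659) and among low-keratin livers (0.384). It also ended without MYC liver 4 or any 1 of wild-type livers 2 to 5 (adjusted p from 0.0534 to 0.0905). The other 2 differences from wild type were 0.65 ± 0.22 with Ex3 (limma adjusted p = 0.608) and -0.59 ± 0.22 with both alleles (limma adjusted p = 0.0585). The latter passed after rescaling, with a keratin term and among keratin livers (limma adjusted p from 0.0177 to 0.0374), while low-keratin livers gave 0.789. It also passed without MYC liver 1 or 4 or wild-type liver 1 (limma adjusted p from 0.0188 to 0.0485). The authors' deposited table gives it a log2 fold change of -0.67 with an adjusted p of 0.0121.

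**Figure D2:**
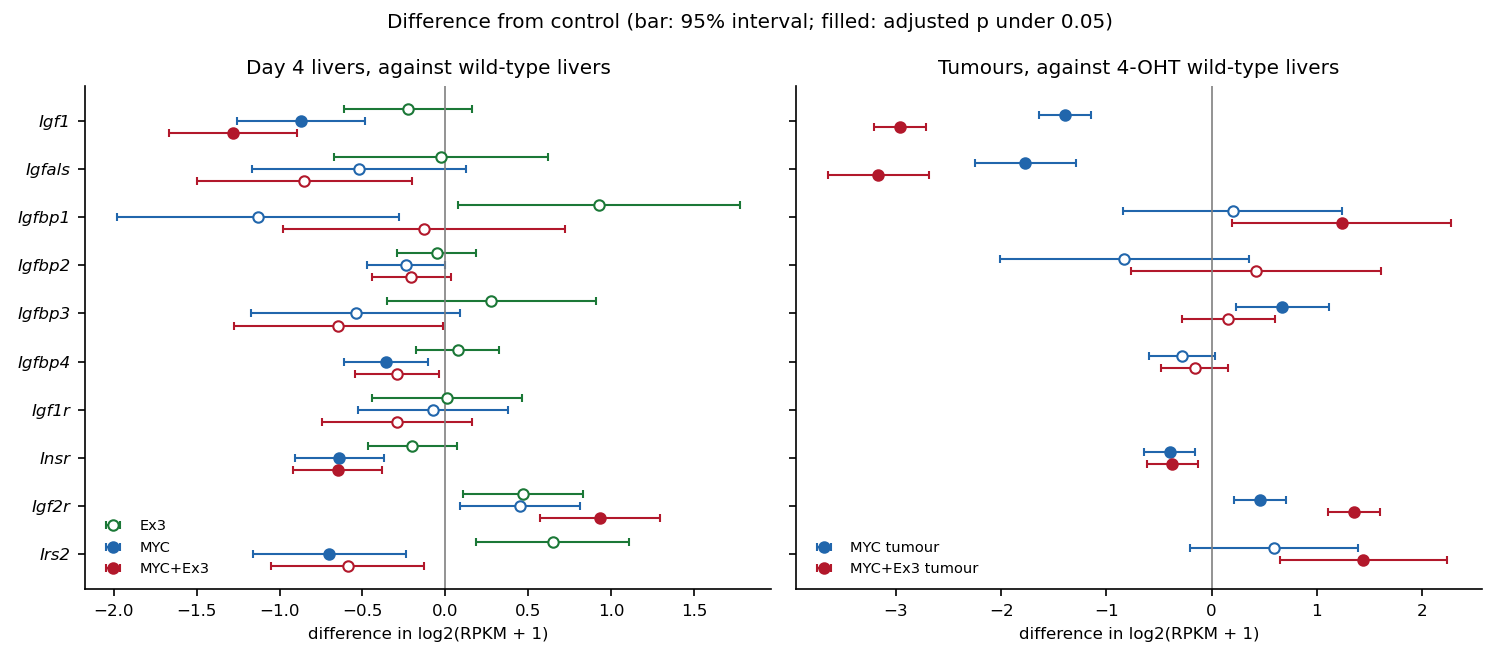
Difference in log2(RPKM + 1) of each gene from wild-type livers at day 4 (left: Ex3, MYC and MYC+Ex3) and from 4-OHT wild-type livers (right: MYC and MYC+Ex3 tumours), with 95% intervals; filled points have limma adjusted p under 0.05, and Igf1r was not tested in the tumour arm. Igf1 lies left of 0 and Igf2r right of 0 in both panels.

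Counted over the list, MYC livers had 0 members higher and 4 lower than wild type (Igf1, Insr, Igfbp4 and Irs2), against 22.3% of all 13688 genes tested called, 16.9% higher and 5.36% lower. Insr and Igfbp4 lay wholly below wild type, as 2.4% of genes did. The 4 lower calls all ended among the low-keratin livers, where the groups hold 4 MYC and 2 wild-type livers. MYC+Ex3 livers had 1 member higher (Igf2r) and 2 lower (Igf1 and Insr), against 24.1% of genes called, 17.9% higher and 6.18% lower. Igf2r lay wholly above wild type, as 13.5% of genes did, and Igf1, Insr, Igfbp4 and Igfals wholly below it, as 3.7% did. The median log2 difference of the 10 members was -0.53 with MYC and -0.44 with both alleles, where the median of all genes was 0.07 and 0.05. Ex3 alone gave no member call by limma, against 0.132% of genes, where 744 of all genes had an unadjusted p under 0.05 and limma-voom on recovered reads called 15 genes. Igf2r and Irs2 did not overlap between Ex3 and wild-type livers, which 1.03% of genes did in the upward direction.

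Adding MYC to Ex3 lowered 5 members and raised none, against 21.1% of genes called, 4.7% lower and 16.4% higher. Irs2 fell by 1.24 ± 0.22 on the log2 scale (limma adjusted p = 0.000411), Igf1 by 1.06 (limma adjusted p = 0.000323), Igfbp3 by 0.92 (limma adjusted p = 0.0341), Insr by 0.45 (limma adjusted p = 0.0162) and Igfbp4 by 0.37 (limma adjusted p = 0.0359). Irs2, Igf1, Insr, Igfbp4, Igfbp1 and Igfals lay wholly below the Ex3 livers, as 5.02% of genes did, and Igfbp3 overlapped. The calls for Igfbp3 and Igfbp4 ended without the filter on low values (0.0543 and 0.0584) and when any 1 of 6 livers was left out (Ex3 1, 3 or 5 and MYC+Ex3 1, 2 or 3 for Igfbp3, with adjusted p from 0.0662 to 0.107, and Ex3 1, 3, 4 or 5 and MYC+Ex3 1 or 2 for Igfbp4, from 0.0616 to 0.107). Those 2 calls also ended among the keratin livers (0.132 for Igfbp3 and 0.110 for Igfbp4), and the call for Insr among the low-keratin livers (0.0696). Other members gained calls in some settings. Igf2r was 0.46 higher without passing (limma adjusted p = 0.0648) and passed in 4 of 11 other settings (adjusted p from 0.000318 to 0.0454). Igfals was 0.82 lower (limma adjusted p = 0.0651) and passed in 6 of 11, and Igfbp1 (limma adjusted p = 0.0719) in 2 of 11. Adding Ex3 to MYC gave no member call by limma, against 0.19% of genes, with 461 genes at an unadjusted p under 0.05 and 20 calls by limma-voom. The largest member differences there were Igfbp1 at 1.00 ± 0.41, whose groups did not overlap (0.497% of genes in that direction), Igf2r at 0.48 and Igf1 at -0.41. The interaction of MYC and Ex3 called no gene at all by limma (0%) or limma-voom, with 132 genes at an unadjusted p under 0.05, and its value for Irs2 was -0.54 ± 0.31. MYC+Ex3 livers are shared by several of these comparisons, as are the wild-type livers.

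The growth hormone axis, which drives Igf1 and Igfals in hepatocytes, was the pathway list with the lowest median against wild type at day 4. Of its 10 tested genes, 3 fell and none rose with MYC, against 22.3% of all genes called and 5.36% called lower. Socs2, a STAT5-induced brake on the receptor, fell by 1.26 (limma adjusted p = 0.0328), the receptor Ghr by 0.93 (limma adjusted p = 0.00224) and the kinase Jak2 by 0.38 (limma adjusted p = 0.0202). The list median was -0.37. The same 3 genes fell with both alleles, by 1.15, 0.56 and 0.41 (limma adjusted p = 0.0471, 0.0495 and 0.0123). Mean Ghr was 159 RPKM in wild-type, 169 in Ex3, 86.5 in MYC and 111 in MYC+Ex3 livers. Summed hepatocyte markers overlapped, at 1734 to 2072 RPKM in wild-type, 1699 to 2251 in Ex3, 1488 to 1958 in MYC and 1272 to 2043 in MYC+Ex3 livers. The top of the scale moved with library total, so these sums cannot measure hepatocyte content alone. The sum of 8 proliferation genes was 5.83 to 15.9 RPKM in wild-type against 139 to 379 in MYC and 230 to 455 in MYC+Ex3 livers, and its part in the member values was not tested.

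Downstream of the receptors the calls went both ways. Among 29 PI3K, AKT and mTOR genes, 3 rose and 4 fell with MYC, a share close to the 22.3% of all genes called there. Mlst8, a subunit of both mTOR complexes, rose by 0.72 and the translation brake Eif4ebp1 by 0.55, while Deptor, an mTOR inhibitor, fell by 0.58 and the catalytic subunit Pik3ca by 0.41. With both alleles 5 rose, led by Mlst8 at 0.66 and Eif4ebp1 at 0.63, and 2 fell, Deptor by 0.47 and Pik3ca by 0.27. Of all genes 24.1% were called there. The other lists held at most 2 calls against wild type. With MYC these were 1 of 16 adaptors and brakes (Pid1, lower), 2 of 16 RAS and MAP kinase genes (Hras higher, Sos1 lower) and 1 of 8 FOXO1 target genes (Pck1, lower), and no call fell among 7 tested other IGF genes. Against Ex3, 3 of the 8 genes that insulin represses through FOXO1 fell in MYC+Ex3 livers (4.7% of all genes did): Pck1 by 0.87, Klf15 by 0.59 and G6pc by 0.58. The medians of these lists with MYC lay between -0.26 and 0.02.

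**Figure D3:**
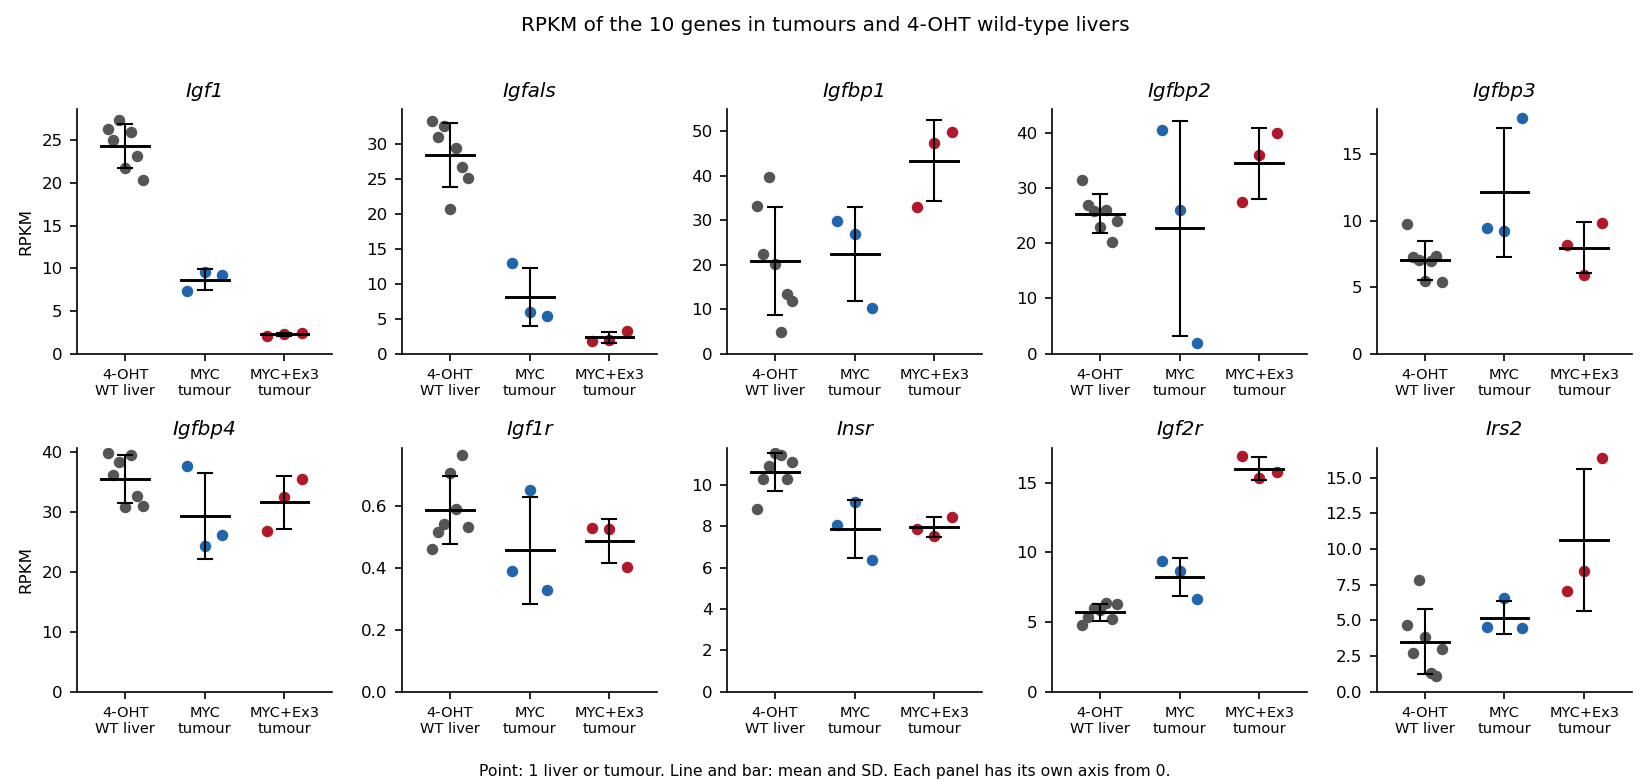
RPKM (linear axis from 0, its own in each panel) of the 10 genes in 7 wild-type livers given 4-OHT, 3 MYC tumours and 3 MYC+Ex3 tumours; each point is 1 library, and line and bar are mean and SD. Igf1 and Igfals step down from the livers to MYC tumours and again to MYC+Ex3 tumours without overlap, and Igf2r steps up.

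In the tumours, Igf1 and Igfals fell in steps. Igf1 had a lowest, median and highest value of 20.4, 25 and 27.4 RPKM in the 4-OHT livers, read 7.30, 9.53 and 9.16 in MYC tumours and 2.10, 2.24 and 2.38 in MYC+Ex3 tumours. The 3 groups did not overlap, and the MYC+Ex3 tumours spread least. Mean Igf1 was 2.81 times lower in MYC tumours and 10.8 times lower in MYC+Ex3 tumours than in the livers, and 3.86 times lower in MYC+Ex3 than in MYC tumours. It fell by 1.39 ± 0.12 on the log2 scale (limma adjusted p = 1.16e-06), by 2.96 ± 0.12 (limma adjusted p = 4.96e-10) and, between the tumours, by 1.57 ± 0.14 (limma adjusted p = 7.73e-06). In order of mean RPKM among all genes, Igf1 stood 428th in the 4-OHT livers, 3305th in MYC tumours and 8943rd in MYC+Ex3 tumours.

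Igfals read 20.6, 29.4 and 33.3 RPKM (lowest, median and highest) in the livers, 12.9, 5.98 and 5.36 in MYC tumours and 1.76, 1.87 and 3.27 in MYC+Ex3 tumours. Here too the groups did not overlap, with MYC tumour 1 above the other 2. Igfals fell by 1.77 ± 0.23 (limma adjusted p = 3.55e-05) and by 3.17 ± 0.23 (limma adjusted p = 1.23e-07) against the livers, a 3.51-fold and a 12.3-fold lower mean. Between the tumours it fell by 1.4 ± 0.27 (limma adjusted p = 0.00796), a call that ended with only the 6 tumours in the fit (limma adjusted p = 0.145).

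Igf2, the fetal ligand that shares the binding proteins and that IGF2R clears, is not among the 10 genes but sets the ligand total. It read 0.0246 to 0.121 RPKM in the 4-OHT livers (4 to 18 reads), 44.6, 35.6 and 39.5 in MYC tumours and 38.3, 45.3 and 45.3 in MYC+Ex3 tumours. As a share of Igf1 plus Igf2 per length, it made up 0.11 to 0.51% in the livers, 85.9, 78.9 and 81.2% in MYC tumours and 94.8, 95.3 and 95% in MYC+Ex3 tumours. The 2 tumour groups did not overlap in that share or in Igf1, while their Igf2 levels did overlap. Igf2 stood toward the top of the scale in these tumours. The highest RPKM of any gene was 67.5, 42.9 and 45.3 in MYC tumours and 45.9, 55.2 and 55.3 in MYC+Ex3 tumours. How far this limits the Igf2 values and the shares was not tested. In the short-term livers Igf2 never passed 0.482 RPKM or 0.68% of the sum. The antisense Igf2os was higher beside it, from at most 0.0172 RPKM in the 4-OHT livers to 0.894 to 3.89 in MYC and 3.70 to 5.90 in MYC+Ex3 tumours. In the GENCODE annotation of GRCm38 it shares 98 exon bases with Igf2 (1.71% of those of Igf2). Reads of that stretch cannot be told apart without the strand setting. Gm49394, on the same strand as Igf2, shares 3596 exon bases (62.8%). The annotation behind the counts is not given in the sources used here.

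**Figure D4:**
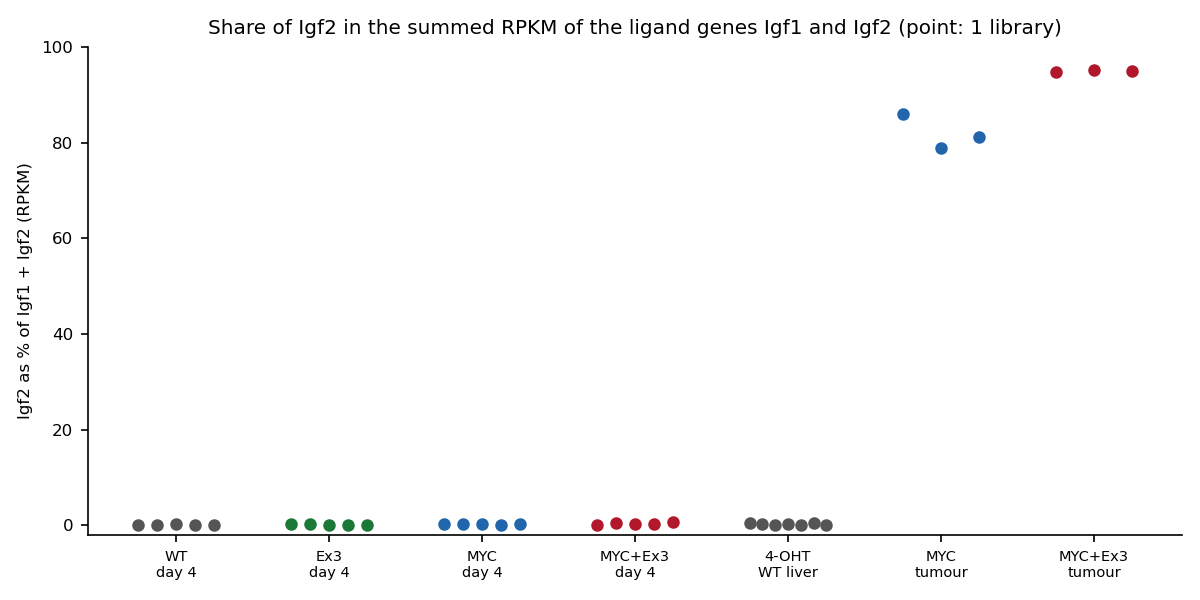
Igf2 as a percentage of the summed RPKM of Igf1 and Igf2 in each of the 33 libraries, by group. The share is at most 0.68% in the short-term livers and 0.51% in the 4-OHT livers, 78.9 to 85.9% in MYC tumours and 94.8 to 95.3% in MYC+Ex3 tumours.

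Of the 4 binding proteins among the members, Igfbp3 rose in MYC tumours and Igfbp1 in MYC+Ex3 tumours. Igfbp3 read 5.37, 7.02 and 9.73 RPKM (lowest, median and highest) in the livers, 9.44, 9.21 and 17.7 in MYC tumours and 8.14, 5.94 and 9.82 in MYC+Ex3 tumours. MYC tumour 3 was the highest, and the other libraries overlapped. Igfbp3 rose by 0.67 ± 0.21 in MYC tumours (limma adjusted p = 0.0150), a call that ended without MYC tumour 3 (0.38, limma adjusted p = 0.131) and against the S14 livers alone (limma adjusted p = 0.0691). In MYC+Ex3 tumours the difference was 0.16 (limma adjusted p = 0.523), and -0.04 after rescaling. Marker sums of the non-parenchymal cells differed among themselves. The endothelial sum was 61.2 to 102 RPKM in the livers, 30.9 to 55.1 in MYC and 33.9 to 38.0 in MYC+Ex3 tumours, so that both tumour groups lay below the livers. In the same order the Kupffer sum was 151 to 207, 53.0 to 157 and 75.7 to 97.1, and MYC tumours overlapped the livers. The stellate sum was 43.0 to 56.5, 29.9 to 58.4 and 28.1 to 36.9 RPKM, with MYC tumours again overlapping the livers. The part of any of these cells in Igfbp3 was not tested.

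Igfbp1 in the 7 livers read 33.1, 22.3, 39.8 and 20.2 RPKM under S14 titles and 4.90, 13.5 and 11.9 under S15 titles. MYC tumours read 29.8, 27.0 and 10.2, within the range of the livers, and MYC+Ex3 tumours 32.9, 47.3 and 49.9, above all S15 livers and overlapping the S14 livers. Igfbp1 rose by 1.23 ± 0.48 in MYC+Ex3 tumours (limma adjusted p = 0.0394), but the value was 0.60 with S14 livers as the sole controls (adjusted p 0.166 by limma) and 2.08 with S15 livers (0.00281). The adjusted p was 0.088 after rescaling, without the filter on low values 0.073 and by limma-voom 0.0594. The call also ended without S15 liver 2 or 3 or any 1 of the MYC+Ex3 tumours (adjusted p from 0.0517 to 0.125). The authors' deposited table lists a log2 fold change of 0.79 for Igfbp1 in MYC+Ex3 tumours, with an adjusted p of 0.153. In MYC tumours the difference was 0.20 (limma adjusted p = 0.754), and its direction turned with the setting, at -0.01 after rescaling, -0.43 against S14 livers and 1.04 against S15 livers.

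In this arm no gene passed 67.5 RPKM. Igfbp2 read 20.3, 25.9 and 31.4 RPKM (lowest, median and highest) in the livers, 40.5, 25.9 and 1.85 in MYC tumours and 27.5, 36.0 and 39.9 in MYC+Ex3 tumours. MYC tumour 3 stood apart as the lowest of all. Neither tumour difference passed, at -0.83 for MYC tumours (limma adjusted p = 0.227) and 0.42 for MYC+Ex3 tumours (0.523). The MYC value was 0.35 without MYC tumour 3 (limma adjusted p = 0.161) and -1.58, a call, once MYC tumour 1 was left out (0.0209). The MYC+Ex3 value passed with only the groups compared in the fit (limma adjusted p = 0.0169) and without MYC tumour 3 (0.0384). Igfbp4 read 30.9, 36.2 and 39.9 in the livers, 37.7, 24.4 and 26.1 in MYC and 26.9, 32.6 and 35.6 in MYC+Ex3 tumours, with the groups overlapping. Libraries with larger totals behind the RPKM tended to read lower. Livers with totals of 28.1 to 31.3 M read 36.2 to 39.9 RPKM, and those of 35.4 to 38.3 M read 30.9 to 32.7. The totals of MYC tumours 1, 2 and 3 were 23.9, 38.8 and 36.9 M. The part of library total in these values was not tested. The Igfbp4 difference was -0.28 in MYC tumours (limma adjusted p = 0.127) and -0.16 in MYC+Ex3 tumours (limma adjusted p = 0.357). Both became calls after rescaling by the median ratio (-0.50, limma adjusted p = 0.00539, and -0.38, limma adjusted p = 0.0178) and by limma-voom (adjusted p 0.00239 and 0.00679). The authors' deposited table lists Igfbp4 lower in both, with log2 fold changes of -0.47 and -0.38 and adjusted p of 0.00419 and 3.98e-05.

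Over all genes the median lay at 0.19 in MYC and 0.23 in MYC+Ex3 tumours against the livers. Rescaling brought these medians to 0.01 and 0.04 and moved the share of calls that were higher from 72.6 to 53.4% and from 69.7 to 55.2%. The same step took the share at day 4 from 75.9 to 59.1% with MYC, from 74.4 to 61.2% with both alleles and from 77.7 to 67% for MYC added to Ex3.

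Of the receptors, Igf2r rose in both tumour groups. It read 4.76, 5.84 and 6.34 RPKM (lowest, median and highest) in the livers, 9.39, 8.64 and 6.69 in MYC tumours and 16.9, 15.4 and 15.8 in MYC+Ex3 tumours. No group overlapped another, and MYC tumour 3 lay close to the livers. The mean was 1.45 times higher in MYC tumours (0.46 ± 0.11 on the log2 scale, limma adjusted p = 0.00452), 2.82 times higher in MYC+Ex3 tumours (1.35 ± 0.11, limma adjusted p = 5.03e-07) and 1.95 times higher in MYC+Ex3 than in MYC tumours (0.89 ± 0.14, limma adjusted p = 0.00155). The first call ended after rescaling (0.27, limma adjusted p = 0.0992) and against the S15 livers alone (limma adjusted p = 0.0552), and the third with only the tumours in the fit (limma adjusted p = 0.0716). The authors' deposited table gives the MYC tumours a log2 fold change of 0.32 with an adjusted p of 0.110. Airn ran from 0.209 to 1.07 RPKM in the livers, 0.871 to 1.42 in MYC and 1.75 to 2.79 in MYC+Ex3 tumours.

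Insr read 8.87, 10.9 and 11.5 RPKM (lowest, median and highest) in the livers, 8.09, 9.19 and 6.38 in MYC tumours and 7.88, 7.54 and 8.48 in MYC+Ex3 tumours. The MYC+Ex3 tumours lay below all livers and MYC tumour 2 within their range. Insr fell by 0.40 ± 0.11 (limma adjusted p = 0.0101) and by 0.37 ± 0.11 (limma adjusted p = 0.0109), and both calls ended against the S14 livers alone (limma adjusted p = 0.0586 and 0.0596). The first also ended without MYC tumour 3 (limma adjusted p = 0.0852) and the second without MYC+Ex3 tumour 2 (limma adjusted p = 0.0525). Igf1r lay under the filter of 1 RPKM in 3 libraries and was not tested in this arm: it read 0.460 to 0.764 RPKM in the livers, 0.391, 0.651 and 0.327 in MYC and 0.529, 0.523 and 0.403 in MYC+Ex3 tumours. With no filter it differed from the livers by -0.13 in MYC tumours (limma adjusted p = 0.231) and by -0.09 in MYC+Ex3 tumours (limma adjusted p = 0.364), neither past the threshold. The authors' deposited table lists Igf1r log2 fold changes of -0.55 in MYC tumours (adjusted p of 0.0819) and -0.49 in MYC+Ex3 tumours (adjusted p of 0.0429).

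Irs2 read 4.70, 2.74, 7.85 and 3.86 RPKM in the S14 livers, 1.31, 1.10 and 3.02 in the S15 livers, 4.56, 6.55 and 4.46 in MYC tumours and 7.09, 8.49 and 16.4 in MYC+Ex3 tumours. MYC tumours lay within the range of the livers and above all S15 livers, and MYC+Ex3 tumours overlapped the livers only at S14 liver 3. Irs2 rose by 1.44 ± 0.37 in MYC+Ex3 tumours (limma adjusted p = 0.00395), and its difference was 0.60 ± 0.37 in MYC tumours (limma adjusted p = 0.198). Against the S15 livers alone the MYC tumours were higher by 1.19 (limma adjusted p = 0.0162). At day 4 Irs2 had stood lower with MYC.

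Over the 9 tested members, MYC tumours had 2 higher (Igf2r and Igfbp3) and 3 lower (Igf1, Igfals and Insr) than the 4-OHT livers, against 49.8% of 11854 genes called, 36.2% higher and 13.7% lower. Igf2r lay wholly above the livers, as 26.3% of genes did, and Igf1 and Igfals wholly below, as 8.89% did. MYC+Ex3 tumours had 3 higher (Igf2r, Irs2 and Igfbp1) and 3 lower (Igf1, Igfals and Insr), against 60.6% of genes called, 42.3% higher and 18.4% lower. Igf2r lay wholly above the livers (38.2% of genes) and Igf1, Igfals and Insr wholly below (17.8%). The members' medians were -0.28 and 0.16, beside 0.19 and 0.23 over all genes. Between the tumours, 1 member was higher (Igf2r) and 2 lower (Igf1 and Igfals) with Ex3, against 4.13% of genes called, 2.02% higher and 2.1% lower. Igf1 and Igfals lay wholly below the MYC tumours, as 7.71% of genes did. Igfbp1 (1.04, limma adjusted p = 0.378) and Irs2 (0.85, limma adjusted p = 0.343) were higher in every MYC+Ex3 tumour than in any MYC tumour without passing the test, and 8.59% of genes showed that separation. All these comparisons share the 4-OHT livers or a tumour group.

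Of 9 growth hormone axis genes tested, 4 fell and none rose in each tumour group, against 13.7% and 18.4% of all genes called lower: Socs2 by 1.12, Cish, another STAT5-induced brake, by 0.97, Ghr by 0.75 and Stat5a by 0.49 in MYC tumours, and Socs2 by 1.66, Ghr by 1.61, the hepatocyte factor Onecut1 by 1.5 and Cish by 1.48 in MYC+Ex3 tumours. Mean Ghr was 27.2 RPKM in the livers, 16.4 in MYC and 8.23 in MYC+Ex3 tumours, and it fell by 0.85 between the tumours (limma adjusted p = 0.0289). The list medians were -0.49 and -0.31. Summed hepatocyte markers were 296 to 407 RPKM in the livers, 244 to 404 in MYC and 221 to 290 in MYC+Ex3 tumours, so that the last lay below all livers, and the part of this in Igf1, Igfals and Ghr was not tested. Here too the top of the scale moved with library total, which limits these sums as a measure of hepatocyte content.

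Other genes of the IGF system and its signalling chain held calls in both directions. Of 6 tested IGF genes outside the list of 10, Igf2 and the fetal RNA-binding protein Igf2bp3 rose in both tumour groups (5.25 and 2.43 in MYC, 5.36 and 2.43 in MYC+Ex3 tumours), while Igfbp7 fell by 0.37 and 0.63. Irs1, the second liver docking protein, fell by 0.85 in MYC tumours and stood 0.88 higher in MYC+Ex3 than in MYC tumours (limma adjusted p = 0.0122). Of 15 adaptors and brakes, 5 rose and 3 fell in each group, against 49.8% and 60.6% of all genes called: Grb10, an imprinted brake on both receptors, rose by 2.22 and 3.87. Beside it Trib3, an AKT inhibitor, rose by 0.89 in MYC tumours and the insulin receptor inhibitor Grb14 by 0.74 in MYC+Ex3 tumours. Enpp1 fell by 1.11 and 0.95 and Pid1 by 0.80 and 0.89.

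Of 28 PI3K, AKT and mTOR genes, 7 rose and 3 fell in MYC tumours and 10 rose and 5 fell in MYC+Ex3 tumours, shares below the 49.8% and 60.6% of all genes called. Eif4ebp1 and Mlst8 rose by 0.65 each in MYC tumours, and the S6 kinase gene Rps6kb1 by 0.79 and Pik3r2 by 0.70 in MYC+Ex3 tumours. The regulatory subunit Pik3r1 fell by 0.84 and 0.71. Of 15 RAS and MAP kinase genes, 5 rose and 2 fell in MYC tumours and 6 rose and 2 fell in MYC+Ex3 tumours, near or below those shares. Nras rose by 0.73 and Mapk3 by 0.54 in MYC tumours, and Mapk3 by 1.01 in MYC+Ex3 tumours. Dusp6 and Spry4, feedback inhibitors that ERK signalling induces, fell by 1.13 and 0.75 in MYC and by 0.71 and 0.85 in MYC+Ex3 tumours.

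Of the 8 other genes that insulin represses through FOXO1, 4 rose and 1 fell in MYC+Ex3 tumours, a share close to the 60.6% of all genes called. Pdk4, which brakes glucose oxidation, rose by 2.41 and Cited2 by 1.46, while Pck1, the gluconeogenic enzyme, fell by 1.72. Pdk4 and Cited2 were also higher in MYC+Ex3 than in MYC tumours, by 2.15 and 0.86. MYC tumours had 2 higher and none lower than the livers, where 49.8% of all genes were called. The medians of the pathway lists outside the growth hormone axis lay between -0.06 and 0.25 in the tumours.

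**Figure D5:**
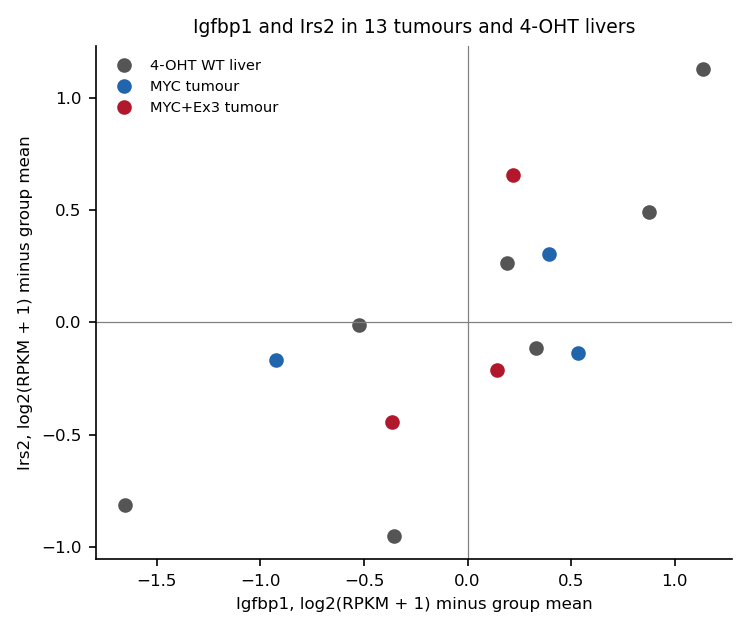
Igfbp1 (horizontal) against Irs2 (vertical) in the 13 libraries of the tumour arm, as log2(RPKM + 1) minus the group mean, coloured by group. Libraries high in one gene for their group tend to be high in the other, and the 4-OHT livers span the widest range.

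Whether Igfbp1 and Irs2, both repressed by insulin in hepatocytes, varied together between animals was examined after removing group means, as was the pair Igf1 and Igfals, giving 4 relations over both arms. In the tumour arm Igfbp1 and Irs2 had r = 0.746 over 13 libraries (permutation p = 0.00348, adjusted over 4 relations 0.0139) and Spearman's rho = 0.709 (permutation p = 0.00852, adjusted 0.0341), and r = 0.744 without the 2 libraries farthest from the median of Igfbp1. The 4-OHT livers differed by title in both genes: Igfbp1 was 20.2 to 39.8 RPKM under S14 and 4.90 to 13.5 under S15, and Irs2 2.74 to 7.85 and 1.10 to 3.02. With the livers centred within titles, r was 0.494 (permutation p = 0.0884) and rho 0.478 (permutation p = 0.102), neither under 0.05. These values still pool the tumours with both sets of livers, so they do not give the relation within either set. At day 4 the pair had r = 0.392 over 20 livers (permutation p = 0.0898, adjusted 0.12) and rho = 0.141 (permutation p = 0.553), falling to r = 0.135 without the 2 farthest livers. Within the keratin sets r was 0.671 over 10 livers with low keratins (permutation p = 0.0336) and 0.263 over 9 of the others (exact permutation p = 0.507).

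Igf1 and Igfals, both induced by growth hormone, had r = 0.431 at day 4 (permutation p = 0.064, adjusted 0.12) with rho = 0.165, and r = -0.0402 without the 2 farthest livers. Within the keratin sets r was 0.589 with low keratins (permutation p = 0.0766) and 0.290 in the others (exact permutation p = 0.467). In the tumour arm r was -0.00586 (permutation p = 0.984) and rho 0.126.

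The effect of the alleles was set against the control of the same arm and then compared between arms over all 33 libraries, so that a scale factor between arms cancels apart from the pseudocount. The tumour effect of MYC+Ex3 was lower than the day 4 effect for Igf1 by 1.68 ± 0.24 (limma adjusted p = 1.53e-05) and for Igfals by 2.32 ± 0.42 (limma adjusted p = 0.000409), and higher for Irs2 by 2.03 ± 0.43 (limma adjusted p = 0.00196). These were 3 of 10 members, against 11% of 13873 genes called, 6.27% higher and 4.76% lower. Ghr differed in the same way as Igf1, by -1.05 (limma adjusted p = 0.0136). For MYC alone no member passed by limma, against 2.43% of genes (1.06% higher and 1.37% lower), where 2113 genes had an unadjusted p under 0.05, and limma-voom called 1 member among 886 genes. The largest member values were 1.33 for Igfbp1 (limma adjusted p = 0.338), 1.29 for Irs2 (limma adjusted p = 0.11), -1.25 for Igfals (limma adjusted p = 0.121) and 1.21 for Igfbp3 (limma adjusted p = 0.113). The effect of adding Ex3 to MYC differed for Igf1, by -1.16 ± 0.26 (limma adjusted p = 0.0315), against 0.555% of genes called, 0.332% higher and 0.223% lower, and this call ended with only the groups compared in the fit (limma adjusted p = 0.517) and without MYC liver 1, MYC+Ex3 liver 3, MYC tumour 3 or any 1 of the MYC+Ex3 tumours (adjusted p from 0.0551 to 0.0996). The arms differ in agent, Cre, tissue and scale, and these cannot be told apart.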

How the data were processed

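Total RNA of 33 livers and nodules was made into stranded libraries, per the labels. The authors deposited RPKM per gene and library, with log2 fold changes and adjusted p-values for 7 comparisons in the same table. The submitters' processing notes name TopHat2 2.0.8, SAMtools, featureCounts 1.4.5-p1, DESeq2 and build mm9. Annotation, strand setting and duplicate removal are not given in the sources used here. The RPKM, as deposited, were taken to log2(RPKM + 1) and tested within each arm with limma 3.58.1 (R 4.3.3), with trend, two-sided, over 12 comparisons. Genes with an RPKM of 1 or more in 3 or more of the fitted libraries entered the test, p-values were adjusted over all genes tested (Benjamini-Hochberg), and calls lie under 0.05. Pathway genes named are the 2 largest rises and falls among calls with a mean RPKM of at least 1, in lists with at least 3 calls; single calls in shorter lists were named after their values were seen. Some genes that the rule would name are not reported here. The members and lists were chosen with earlier results of these data known. Correlations used 100000 permutations, or all of them under 10 libraries. Whole reads were recovered from RPKM steps (100% of values within 0.001 of a whole number) for limma-voom. The fit was tested on simulated data. Other pseudocounts, filters, scalings, fits, covariates, weights and sets of livers, and each library left out in turn, were tried. Depth limits Igf1r and Igf2 in livers most. Figures and correlations were made with Python 3.11.15. No 2 libraries held identical values.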

Additional observations from a re-analysis of the deposited data

Results flagged for a closer look

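Of the member values, 3 among the 50 groups of 4 to 10 libraries examined (10 genes in 5 groups) stood apart from the rest of their group by a gap test at the 95% level, where chance alone gives about 1 in 20. Igf1r was 4.25 RPKM in MYC liver 5 and 0.582 to 1.4 in the other 4 MYC livers. Igfbp2 was 201 RPKM in MYC liver 3 and 145 to 160 in the others. Igfbp4 was 233 RPKM in wild-type liver 2 and 173 to 187 in the others.

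For 4 effects, the size differed between tumours and day 4 livers by the test of the difference itself. With both alleles the difference was -1.68 for Igf1, -2.32 for Igfals and 2.03 for Irs2, and for Ex3 added to MYC it was -1.16 for Igf1.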

How the results depend on the processing

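No paired analysis was possible because the libraries carry animal numbers that no group shares, and replicate numbers in accession order only name them. Of 3674 member values under other settings, 3535 kept their side of the threshold, 130 of all being uncalled values that changed sign, 63 lost a call, 76 gained one and none of the called values changed direction. The 10 members' calls moved as follows, and the cause was not tested. MYC against wild type, 4 calls: 0 among low-keratin livers, 2 with only the groups compared, 2 to 7 with 1 library left out. MYC+Ex3 against wild type, 3 calls: 5 after rescaling, 8 with sample weights, 5 with a keratin term, 6 in low-keratin and 5 in keratin livers, 3 to 7 with 1 left out. MYC+Ex3 against Ex3, 5 calls: 3 without the filter, 10 with weights, 3 to 6 with 1 left out. MYC tumours, 5 calls: 3 against S14 livers, 3 to 7 with 1 left out. MYC+Ex3 tumours, 6 calls: 4 to 7 with 1 left out. Between tumours, 3 calls: 1 with only the tumours in the fit. Tumour minus day 4: for MYC, 0 calls became 1 after rescaling, by limma-voom and with weights (0 to 1 with 1 left out); for MYC+Ex3, 3 became 5 with weights; for Ex3 on MYC, 1 became 0 with only the groups compared (0 to 1 with 1 left out). Under settings other than leaving out a library, counts over all genes moved by over 1.5 times in these cases. Ex3 against wild type, 18: 31 with a sex term, 62 with weights, 2 in either keratin set. MYC against wild type, 3047: 1249 in low-keratin livers. MYC+Ex3 with weights: 6416 from 3301 against wild type and 6707 from 2893 against Ex3, the latter 1660 in keratin livers. MYC+Ex3 against MYC, 26: 11 with a pseudocount of 0.1, 10 without the filter or with only the groups compared, 78 with weights, 6 in low-keratin livers. With a filter at 5 RPKM: 3636 from 5907 in MYC tumours, 4278 from 7189 in MYC+Ex3 tumours, 240 from 489 between tumours (311 with weights, 70 with only the tumours). Tumour minus day 4, MYC, 337: 524 with a keratin term up to 886 by limma-voom. MYC+Ex3, 1531: 2356 with a pseudocount of 0.1 up to 3973 with weights. Ex3 on MYC, 77: 15 with only the groups compared up to 186 after rescaling. With 1 library left out, counts over all genes ran from 5 to 22 for Ex3 against wild type, 7 to 37 for MYC+Ex3 against MYC, 199 to 764 between tumours, and 164 to 608, 846 to 1795 and 32 to 195 for the 3 differences between arms. The libraries that moved these by over 1.5 times were, in that order, Ex3 3 and 4 and wild-type 4 and 5; MYC 1 to 4 and MYC+Ex3 1, 2, 3 and 5; MYC tumours 2 and 3 and all MYC+Ex3 tumours; MYC liver 4 and MYC tumours 1 and 3; MYC+Ex3 tumour 3; and MYC liver 1, MYC tumours 1 and 2 and MYC+Ex3 tumours 1 and 3. By limma-voom the calls that were higher made up 27.5, 34.6 and 39.9% of these 3, from 43.6, 56.8 and 59.7%, and 62 and 59.2% in MYC and MYC+Ex3 tumours. The correlation of Igfbp1 and Irs2 moved to 0.671 in low-keratin livers and, centred within titles (chosen after seeing the data), to 0.494. Reads limit Igf2 in livers (0 to 18) and Igf1r.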
